A study of Homo sapiens with 6 samples.

Results

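The genes described here make the molybdenum cofactor or use it: MOCS2, its divergent transcript AC008966.1, MOCS1, GPHN, SUOX, XDH, AOX1, MARC1, MARC2 and MOCOS. They were chosen by name, as 10 of the 60675 gene rows of the count table, and all 10 were found by Ensembl identifier. AC008966.1 is now called MOCS2-DT, and MARC1 and MARC2 are now MTARC1 and MTARC2. The RNA came from HEK293, an established line derived from human embryonic kidney. There were 3 libraries labelled control (control 1 to 3), with the genotype given as wild type, and 3 labelled MOCS2 RNAi knockdown (knockdown 1 to 3, named by their label). Cells of both groups grew in high-glucose DMEM with fetal bovine serum and Geneticin, an antibiotic used to keep cells that carry a resistance gene. The labels do not give the RNAi construct, its target sequence, the time after its introduction, or whether the knockdown cells were a clone or a pool. They also do not say that replicates were separate cultures, so p-values measure the spread between these libraries, which may be technical.

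The molybdenum cofactor is a sulfur-containing pterin that holds a molybdenum atom in the active site of a few enzymes. MOCS1 turns GTP into a first pterin precursor, and MOCS2 encodes both subunits of molybdopterin synthase, which adds the sulfurs. GPHN, gephyrin, then inserts molybdenum, and the same protein anchors glycine and GABA receptors at inhibitory synapses. The finished cofactor serves sulfite oxidase (SUOX), xanthine dehydrogenase (XDH), aldehyde oxidase (AOX1) and the mitochondrial amidoxime reducing components (MARC1 and MARC2). XDH and AOX1 also need a terminal sulfur on the molybdenum, which the sulfurase MOCOS supplies.

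MOCS2 and AC008966.1 are transcribed in opposite directions from one stretch of DNA, whose sequence is given because these neighbours had different values in the same libraries. MOCS2 lies on chromosome 5, 53095679 to 53110063, minus strand, and AC008966.1 at 53109842 to 53115126, plus strand (GRCh38, GENCODE release 29). Of 10 annotated MOCS2 transcripts, 9 start 64 or more bases before the first start of AC008966.1 and run away from it. The remaining transcript starts inside AC008966.1, so the exons of the genes share 79 bases, or 1.31% of the exon bases of MOCS2 and 2.47% of those of AC008966.1. By the RefSeq starts, 84 bases lie between the genes. The 250 bases upstream of the RefSeq start of MOCS2 (chr5:53109758-53110007, GRCh38.p14, minus strand, ending at the base before the start) are given 5′ to 3′, with the GC box GGGCGG in capitals, and the stretch between the starts follows on the same strand.
MOCS2 upstream window: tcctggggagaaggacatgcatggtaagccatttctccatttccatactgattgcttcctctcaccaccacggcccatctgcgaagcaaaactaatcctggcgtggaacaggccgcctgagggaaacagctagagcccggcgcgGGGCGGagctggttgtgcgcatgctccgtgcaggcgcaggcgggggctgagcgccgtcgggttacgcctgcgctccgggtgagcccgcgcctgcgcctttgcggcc
Between the starts: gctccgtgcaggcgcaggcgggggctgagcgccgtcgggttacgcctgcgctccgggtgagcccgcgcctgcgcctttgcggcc
Both strands were searched for the GC box GGGCGG, for the CCAAT box, for a TATA box written as TATAAA, and for the palindromic NRF1 site. GGGCGG was found 1 time, beginning 106 bases before the start, and 42.6% of 35116 RefSeq promoter windows of the same length hold it. The CCAAT box, the TATA box and the NRF1 palindrome, found in 32.0%, 10.7% and 1.03% of those windows, had no exact match in these letters. Looser spellings of these sites were not searched for, so the window is not shown to lack them. The window was 64.8% G or C with 22 CG dinucleotides, against medians of 58.0% and 11 over all windows.

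Reads assigned to genes numbered 17958632 to 22171106 per library. Values are given in CPM, the reads of a gene per 1000000 reads of its library after TMM scaling, so that a difference is relative to most other genes. Counts of same-group libraries were farther apart than read sampling gives (chi-square over degrees of freedom, 11.6 to 75.3 for the 6 pairs). The library labelled knockdown 2 stood apart in its reads outside annotated genes, at 37.5% of uniquely aligned reads against 21.5% to 25.0% in the other 5. Counts of called genes turned on knockdown 3: edgeR called 0 of 18267 genes with all libraries and 2815 without it. Of the 7 HEK293 markers checked (KRT8, KRT18, VIM, NEFL, NEFM, PAX2 and LHX1), 7 passed the filter on low counts. So did 4 of 7 fibroblast, 3 of 4 endothelial, 1 of 4 leukocyte and 0 of 5 hepatocyte markers. The HEK293 markers summed to 1266 to 1742 CPM over controls and 1762 to 2450 CPM over the libraries labelled knockdown. Of them, 4 had positive and 3 negative log2 fold changes: VIM averaged 805 and 1277 CPM, NEFL 160 and 125, and LHX1 11.2 and 6.54. The summed level of 5 hepatocyte markers ran from 0.180 to 0.604 CPM over controls and from 0.226 to 1.01 CPM over the libraries labelled knockdown. That of 4 leukocyte markers was 2.34 to 3.64 and 2.74 to 3.08 CPM. For 7 fibroblast markers it was 18.9 to 29.3 and 10.8 to 18.2 CPM, and for 4 endothelial markers 3.24 to 4.38 and 1.58 to 3.51 CPM. Within those lists the markers did not share a direction: LUM averaged 11.9 CPM in controls and 1.90 under the knockdown label, against 5.82 and 6.66 for COL1A1 and 3.94 and 4.82 for COL3A1. KDR averaged 2.35 and 0.918 CPM, against 0.817 and 0.879 for PECAM1 and 0.542 and 0.674 for VWF. None of these markers was at 0 in all 6 libraries. The part of these differences in the values of the 10 genes was not tested.

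None of the 9 genes with enough reads to be tested passed edgeR's quasi-likelihood test over all genes, and MOCS2 itself had nearly the same mean in both groups. XDH had too few reads to be tested. At an adjusted p of 0.05 there were 0 calls among the 9, beside 0% of all 18267 genes. At an unadjusted p under 0.05 there were 2 of 9, GPHN and AC008966.1, against 20.5% of all genes. DESeq2 called 1 of the 9 tested genes, AC008966.1, against 6.94% of all genes, and 0 were called with limma voom. The groups did not overlap in 3 of 9, with GPHN above the controls and AC008966.1 and AOX1 below, while over all genes 12.5% lay wholly above and 14.3% wholly below. Leaving out 1 library raised the count to 5 without control 1 (16.8% of all genes above and 18.3% below), to 4 without knockdown 1 (15.2% and 16.8%) and to 5 without knockdown 3 (23.0% and 25.0%). With 9 genes these counts are near the background and are no result about the group. A negative log2 fold change was found in 8 of 9 genes, against 48.2% of all genes, with a median of -0.21 against 0.02. That count was 6 of 9 with upper-quartile factors or without control 3, 7 without control 2 or knockdown 2, and 5 without knockdown 3, the genes that turned being MOCS2, MARC1 or MARC2.

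**Figure D1:**
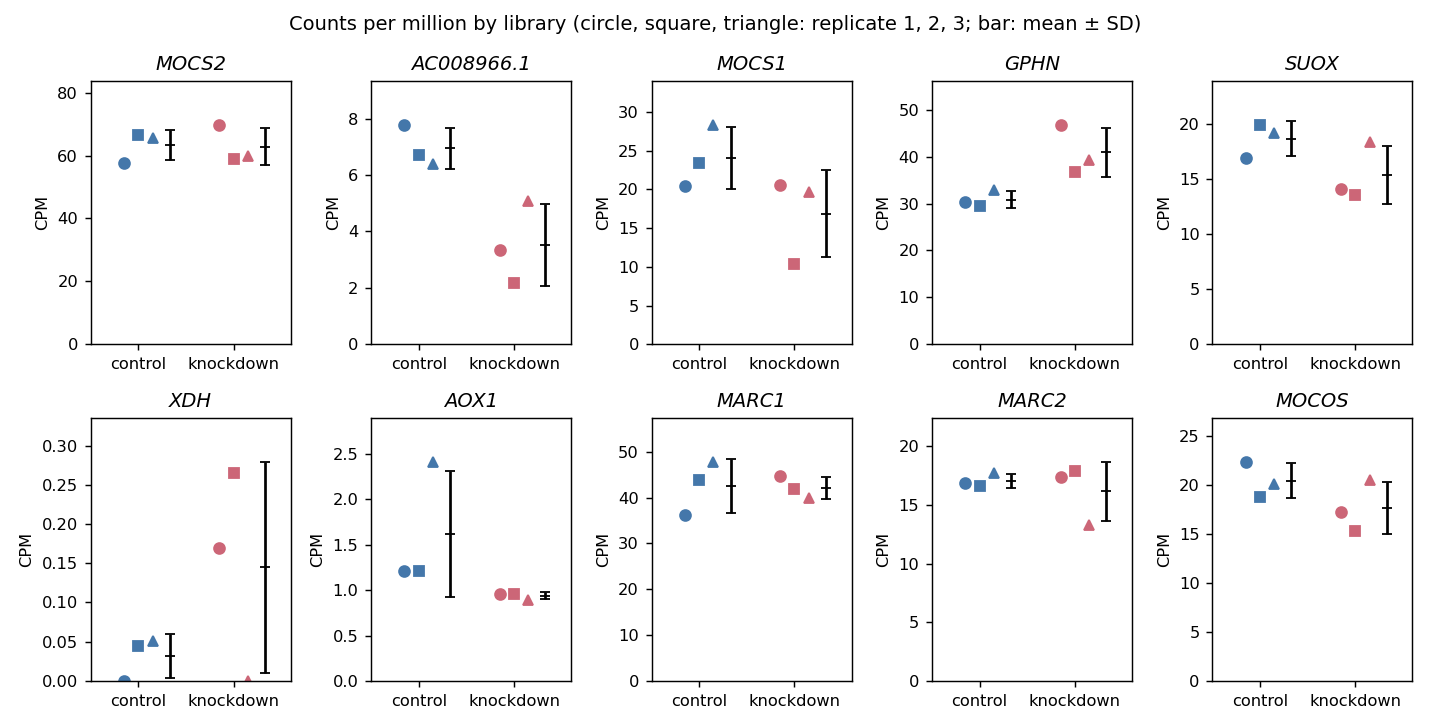
CPM of each of the 10 genes (vertical axes, each from 0) in the 3 control and 3 knockdown libraries, with the mean and SD of each group as bars. MOCS2 overlaps between groups, GPHN lies higher and AC008966.1 lower in every library labelled knockdown, and XDH is near 0 throughout.

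The targeted gene comes first, since the labels name it. MOCS2 (ENSG00000164172) had 57.8, 66.6 and 65.6 CPM in control 1, 2 and 3, from 1285, 1482 and 1303 reads. In the libraries labelled knockdown it had 69.8, 58.9 and 59.9 CPM, from 1234, 1109 and 1136 reads. The highest and the lowest library were knockdown 1 and control 1, so the groups overlapped. The fitted ratio of the libraries labelled knockdown to the controls was 0.99, with a 95% interval of 0.80 to 1.24 (log2 fold change -0.01, SE 0.14, edgeR adjusted p = 0.976). The summed RNA of the targeted gene was thus not found lower under the label. Each direction given here is that of the libraries labelled knockdown, not of lower MOCS2 RNA. The small difference in MOCS2 turned positive in 4 of the 6 fits that leave out 1 library (control 2 or 3, or knockdown 2 or 3). Counts per gene add up all transcripts, so the transcripts for the small and large subunit cannot be separated. Whether a single transcript or the protein was lower was not tested.

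AC008966.1 (ENSG00000247796), the noncoding transcript that leaves the same promoter in the other direction, had a lower mean level in the libraries labelled knockdown. It had 7.78, 6.69 and 6.39 CPM in control 1, 2 and 3, from 173, 149 and 127 reads. In the libraries labelled knockdown it had 3.34, 2.18 and 5.06 CPM, from 59, 41 and 96 reads. Every library labelled knockdown lay below every control, with knockdown 3 nearest to them and knockdown 2, the library with the most reads outside genes, lowest. The fitted ratio was 0.51 (95% interval 0.32 to 0.82, log2 fold change -0.98, SE 0.31, edgeR adjusted p = 0.134). By DESeq2 the adjusted p was 0.0387, and by edgeR it was 0.0125 without knockdown 3, where the log2 fold change was -1.34 and 14.8% of all genes were called. Without knockdown 2 the log2 fold change was -0.73. No source used here gives the strand setting of the counting, and without it reads of the 79 shared bases cannot be told apart.

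Setting the divergent pair against each other within a library removes the library size. There were 13.5, 10.1 and 9.75 reads of AC008966.1 per 100 reads of MOCS2 in control 1, 2 and 3. The libraries labelled knockdown had 4.78, 3.70 and 8.45 per 100. The groups did not overlap, and the means were 11.1 ± 2.06 and 5.64 ± 2.49 per 100 (SD, n = 3 each). On the log2 scale, with 0.5 added to each count, the difference was -1.04, and a two-sided exact permutation test gave p = 0.1, the smallest that 20 assignments of 3 and 3 libraries allow. Because the pair was set apart with these values known, this is a description of the locus in these libraries.

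**Figure D2:**
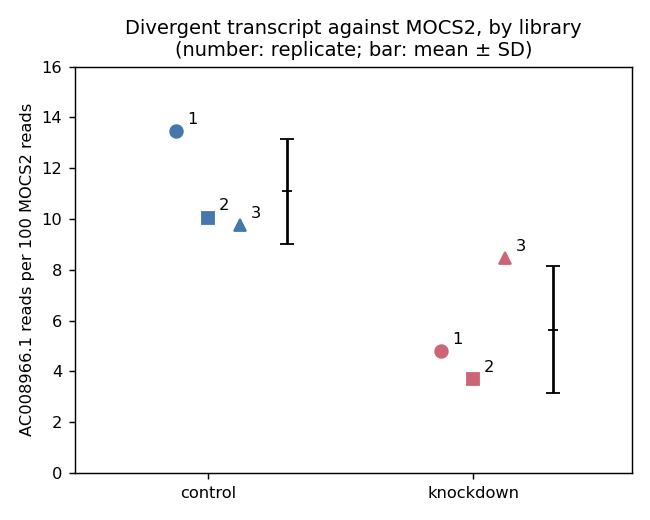
Reads of AC008966.1 per 100 reads of MOCS2 (vertical axis) in each library, with the replicate number beside the point and the group mean and SD as a bar. The controls lie between 9.75 and 13.5, and the libraries labelled knockdown between 3.70 and 8.45, with replicate 3 nearest the controls.

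Other genes around MOCS2 were read from the same fit. Of 22 annotated genes that start within 1 Mb of MOCS2, 6 were tested, 0 passed, and their log2 fold changes ran from -0.98, for AC008966.1, to 0.20. The next nearest tested gene was ITGA2, an integrin subunit, which starts 121 kb away. ITGA2 had means of 47.0 CPM in the control group and 46.2 CPM in the other (log2 fold change -0.02, edgeR adjusted p = 0.955). Across the 6 libraries, the log2 CPM of MOCS2 was most like that of RAPGEF4, SLC35G1 and ILDR2 (Pearson r 0.975, 0.975 and 0.974) among 10463 genes with a mean of at least 10 CPM. For AC008966.1 the nearest were AP4M1, KIF22 and DPM1 (Pearson r 0.997, 0.997 and 0.995). With 6 points from 2 groups and so many genes, such values are descriptions of these libraries.

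The other steps of synthesis had means in opposite directions. MOCS1 (ENSG00000124615, chromosome 6, 39899578 to 39934551, minus strand), the first step, had 20.5, 23.4 and 28.3 CPM in control 1, 2 and 3. In the libraries labelled knockdown it had 20.5, 10.4 and 19.7 CPM. Control 1 and knockdown 1 were at the same level, and knockdown 2 was far below all others. The log2 fold change was -0.51 (95% interval -1.08 to 0.05, edgeR adjusted p = 0.281), and -0.27 without knockdown 2. Its exons share 735 bases, 14.2% of their length, with DAAM2 on the other strand, and 127 bases with AL590999.1 on the same strand, so reads there are uncertain. DAAM2 averaged 11.1 and 8.78 CPM (edgeR adjusted p = 0.408).

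GPHN (ENSG00000171723, chromosome 14, 66507407 to 67181803, plus strand), the last step, had 30.2, 29.5 and 32.8 CPM in control 1, 2 and 3. The libraries labelled knockdown had 46.8, 36.7 and 39.4 CPM. It was the only tested gene of the 9 whose groups lay apart with the libraries labelled knockdown on top, and knockdown 1 was the highest. The fitted ratio was 1.33 (95% interval 1.05 to 1.68, log2 fold change 0.41, SE 0.15, edgeR adjusted p = 0.179). Leaving out single libraries gave log2 fold changes from 0.30, without knockdown 1, to 0.47, without knockdown 2. The exons of GPHN share 321 bases, 5.34% of their length, with AL359232.1 on the other strand, so reads there are uncertain. AL359232.1 had 8, 3 and 9 reads in control 1, 2 and 3 and 5, 15 and 8 in knockdown 1, 2 and 3. Within a library, GPHN had 1.48, 1.26 and 1.16 times the CPM of MOCS1 in control 1, 2 and 3, and 2.28, 3.54 and 1.99 times in knockdown 1, 2 and 3. The groups did not overlap in this ratio, which was chosen after the values were seen and was not tested.

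**Figure D3:**
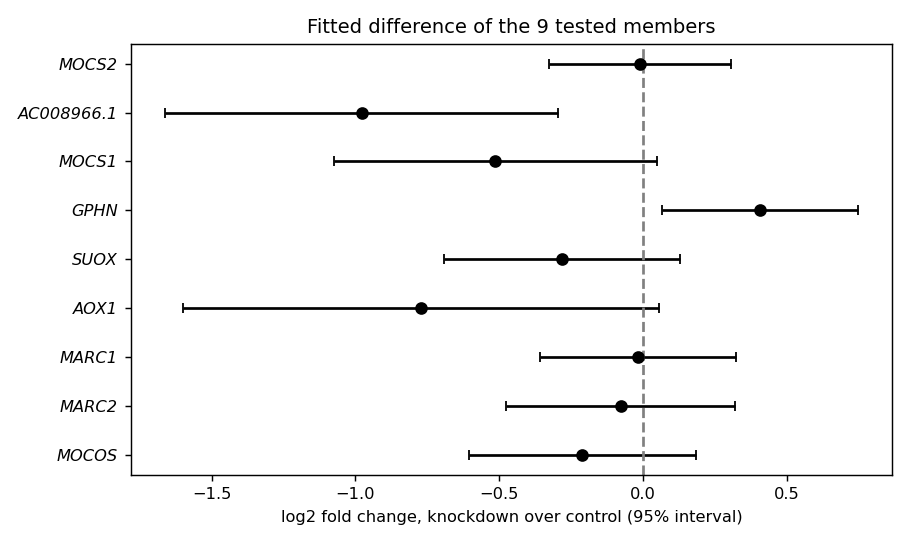
Log2 fold change of the libraries labelled knockdown over the controls (horizontal axis) for the 9 tested genes, as points with 95% intervals from edgeR's quasi-likelihood fit. The intervals of GPHN and AC008966.1 leave out 0 before adjustment over all genes, and the other 7 include it.

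Of the enzymes that use the cofactor, sulfite oxidase carries out the last step of sulfur amino acid breakdown, from sulfite to sulfate. SUOX (ENSG00000139531, chromosome 12, 55997180 to 56006641, plus strand) had 16.9, 19.9 and 19.2 CPM in control 1, 2 and 3. It had 14.1, 13.6 and 18.4 CPM in knockdown 1, 2 and 3, where knockdown 3 lay within the range of the controls. The log2 fold change was -0.28 (95% interval -0.69 to 0.13, edgeR adjusted p = 0.415), and -0.44 without knockdown 3 (edgeR adjusted p = 0.121).

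Xanthine dehydrogenase was near the limit of detection. XDH (ENSG00000158125, chromosome 2, 31334321 to 31414715, minus strand) had 0, 1 and 1 reads in control 1, 2 and 3. In knockdown 1, 2 and 3 it had 3, 5 and 0 reads, and it did not pass the filter on low counts. A level of 3 reads corresponds to 0.135 to 0.170 CPM in these libraries. At this depth the counts say little about a difference, which was not tested in the fit with that filter. AOX1 (ENSG00000138356, chromosome 2, 200585868 to 200677064, plus strand) was low but present, with 27, 27 and 48 reads in controls and 17, 18 and 17 in the libraries labelled knockdown. That is 1.21, 1.21 and 2.42 CPM against 0.961, 0.957 and 0.897 CPM, with control 3 far above the other 5. The log2 fold change was -0.77 (95% interval -1.60 to 0.05, edgeR adjusted p = 0.270), and -0.38 without control 3.

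MOCOS (ENSG00000075643, chromosome 18, 36187519 to 36272157, plus strand), which activates both of those enzymes, stood far above either per length of exon (3.25 CPM per kilobase in controls, against 0.291 for AOX1). It had 22.4, 18.8 and 20.1 CPM in control 1, 2 and 3 and 17.2, 15.3 and 20.5 CPM in knockdown 1, 2 and 3. Knockdown 3 lay above control 2 and 3, so the groups overlapped. The log2 fold change was -0.21 (95% interval -0.60 to 0.18, edgeR adjusted p = 0.530), -0.34 without knockdown 3 and -0.12 without knockdown 2.

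The MARC genes, whose products reduce N-hydroxylated compounds at the mitochondrial outer membrane, had nearly equal means in both groups. They sit in tandem on the plus strand of chromosome 1, with MARC2 (ENSG00000117791) at 220748225 to 220784815 and MARC1 (ENSG00000186205) 1943 bases farther on, at 220786759 to 220819657. MARC1 had 36.2, 43.8 and 47.9 CPM in control 1, 2 and 3 and 44.7, 41.9 and 39.8 CPM in knockdown 1, 2 and 3. MARC2 had 16.9, 16.6 and 17.8 CPM in control 1, 2 and 3 and 17.4, 17.9 and 13.3 CPM in knockdown 1, 2 and 3, where knockdown 3 was the lowest of the 6. The log2 fold change of MARC1 was -0.02 (95% interval -0.36 to 0.33, edgeR adjusted p = 0.962). That of MARC2 was -0.08 (95% interval -0.48 to 0.32, edgeR adjusted p = 0.839). The sign of MARC1 turned without control 3 or knockdown 3, and that of MARC2 without knockdown 3.

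The genes differed in how widely their replicates spread. The SD of log2 CPM among controls ran from 0.05 for MARC2 to 0.54 for AOX1 over the 9 tested genes, with a median of 0.13 against 0.16 for all tested genes. Among the libraries labelled knockdown it ran from 0.05 for AOX1 to 0.59 for AC008966.1, with a median of 0.21 against 0.31. The knockdown spread was the larger in 7 of the 9, AOX1 and MARC1 being the exceptions, and in 76.6% of all tested genes. Knockdown 2 held the lowest of the 6 values in 4 of the 9 genes (AC008966.1, MOCS1, SUOX and MOCOS), while over all tested genes it held the lowest in 25.6%. The part of its reads outside genes in these low values was not tested.

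**Figure D4:**
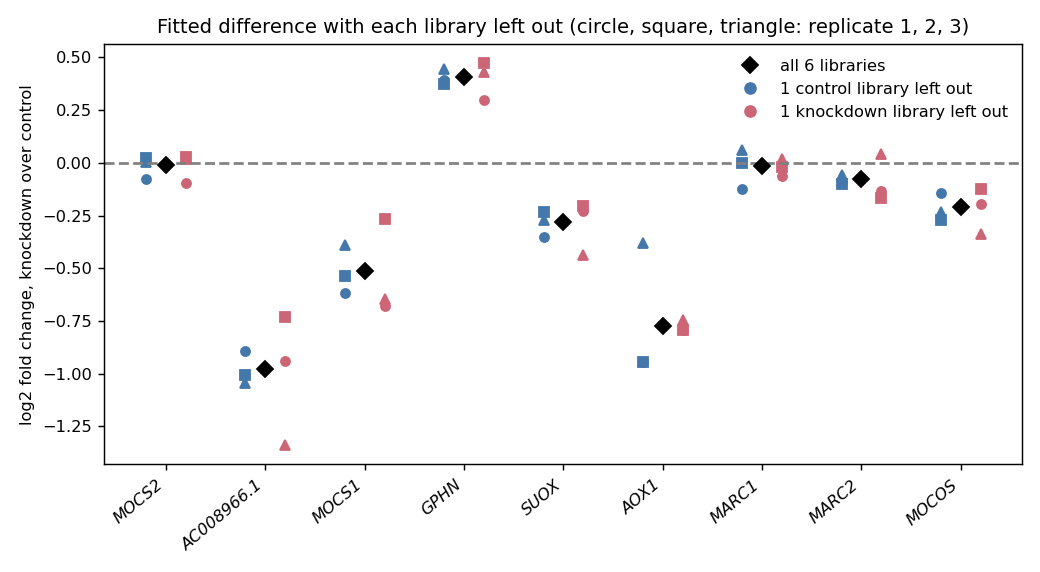
Log2 fold change (vertical axis) of the 9 tested genes from all 6 libraries (diamond) and with 1 control (blue) or 1 knockdown (red) library left out, the shape giving its replicate number. MOCS2, MARC1 and MARC2 cross 0, AC008966.1 runs from -1.34 to -0.73, and AOX1 moves to -0.38 without control 3.

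Between genes, levels were compared only per length, as CPM per kilobase of annotated exon, with no test. MOCS2 was the highest in both groups, at 10.5 ± 0.804 in controls and 10.5 ± 0.996 in the libraries labelled knockdown (SD, n = 3 each). In controls MARC2 (6.58 ± 0.235) and GPHN (5.13 ± 0.293) followed. MOCS1 (4.65), MARC1 (4.60), SUOX (3.73) and MOCOS (3.25) came next, and from GPHN to MOCOS each gene overlapped its neighbour in the order. AC008966.1 (2.18 ± 0.228), AOX1 (0.291 ± 0.125) and XDH (0.00526 ± 0.00458) were each clear of the gene above. In the libraries labelled knockdown GPHN (6.81 ± 0.870) and MARC2 (6.23 ± 0.971) stood in the reverse order but overlapped, as did MOCS1 (3.26 ± 1.09) with SUOX (3.07 ± 0.530) and SUOX with MOCOS (2.81 ± 0.424). There MARC1 (4.55 ± 0.262) stood apart from both of its neighbours, and AC008966.1 was at 1.10 ± 0.455. With the length of the longest transcript in place of all exons, 8 of the 10 genes kept their place in the order of the control means and 8 in that of the knockdown-labelled means, but 5 in that of the means over all 6 libraries. Within both groups, MOCS1 and SUOX changed places, so their order depends on the length chosen.

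**Figure D5:**
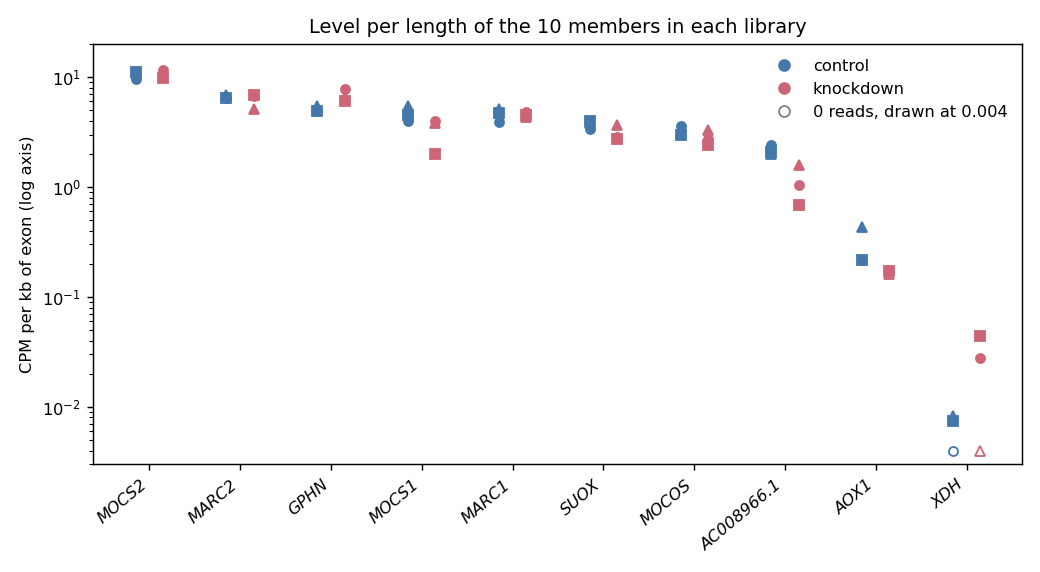
CPM per kilobase of exon (vertical log axis) of the 10 genes in each library, in the order of the control means. MOCS2 is highest in all 6 libraries, 6 genes from MARC2 to MOCOS lie between 2.00 and 7.78, and AOX1 and XDH are lowest.

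Genes that supply the pathway with sulfur, iron-sulfur clusters and molybdate had a median log2 fold change of 0.16 over 7 tested genes, 0 of which passed in either direction. The median was 0.0073 without knockdown 1 and 0.084 without control 3. The most abundant was ISCU, the cluster scaffold (control mean 72.3 ± 4.51 CPM, knockdown-labelled mean 65.5 ± 7.23 CPM). MOCS3, which loads sulfur onto the small subunit of molybdopterin synthase, had 21.0, 20.6 and 21.7 CPM in control 1, 2 and 3. It had 24.8, 23.1 and 23.3 CPM in knockdown 1, 2 and 3, all above the controls (log2 fold change 0.17, edgeR adjusted p = 0.553). MOCS3 was added by name for its role, outside the rule for named genes.

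Electron partners of the molybdenum enzymes had 1 positive and 4 negative log2 fold changes and a median of -0.36 over 5 tested genes. Over all genes, 48.2% were negative. The number past the test was 0, and 1 without knockdown 3, where 14.8% of all genes were called. CYCS, cytochrome c, which takes electrons from sulfite oxidase, had a control mean of 247 ± 19.2 CPM and a mean of 369 ± 100.07 CPM under the knockdown label (log2 fold change 0.58, edgeR adjusted p = 0.146). Without knockdown 3 its edgeR adjusted p was 0.0371, and without knockdown 1 its log2 fold change was 0.34 (edgeR adjusted p = 0.411). CYB5B, the outer mitochondrial membrane cytochrome b5 that passes electrons to MARC1, had 174, 178 and 153 CPM in control 1, 2 and 3. It had 137, 111 and 117 CPM in knockdown 1, 2 and 3, below every control (log2 fold change -0.47, edgeR adjusted p = 0.134).

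Genes listed around sulfite formation and SUOX had 1 positive and 5 negative log2 fold changes and a median of -0.45 over 6 tested genes. Over all genes, 48.2% were negative. The number past the test was 0, but 1 by DESeq2 and 3 without knockdown 3, where 6.94% and 14.8% of all genes were called. The most abundant were the transaminases GOT2 (203 ± 8.99 and 162 ± 19.1 CPM) and GOT1 (75.6 ± 4.50 and 66.6 ± 16.9 CPM), both among the negative genes. The 1 positive gene, named after its values were seen, was CDO1 (19.8 ± 1.96 and 29.1 ± 8.29 CPM, log2 fold change 0.56, edgeR adjusted p = 0.183). Its groups overlapped, with 21.9 CPM in control 3 and 21.5 CPM in knockdown 3. Genes of purine breakdown around XDH had 6 positive and 3 negative and a median of 0.07 over 9 tested of 10. That median ran from 0.0011, without knockdown 1, to 0.16, without knockdown 2, over the fits that leave out 1 library. The number past the test was 0, but 1 by DESeq2, 1 with no filter and 3 without knockdown 3. Over all genes those 3 fits called 6.94%, 3.64% and 14.8%. PNP, the nucleoside phosphorylase, averaged 136 ± 27.0 and 167 ± 19.2 CPM, and the nucleotidase NT5C2 80.2 ± 3.69 and 90.4 ± 9.84 CPM. ABCG2, a urate exporter singled out after its values were seen, had 6.20, 9.92 and 9.72 CPM in control 1, 2 and 3 and 4.52, 3.93 and 2.95 CPM in knockdown 1, 2 and 3 (log2 fold change -1.18, edgeR adjusted p = 0.0914). Its adjusted p was 0.00434 by DESeq2 and 0.0329 by edgeR without knockdown 3.

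Partners of gephyrin at inhibitory synapses were tested in 9 of 16 cases, with 5 positive and 4 negative log2 fold changes and a median of 0.14. The number past the test was 0, but 2 by DESeq2, 2 with no filter, 1 with the replicate block and 5 without knockdown 3. Over all genes those fits called 6.94%, 3.64%, 0.104% and 14.8%. The median turned to -0.07 without control 2, to -0.20 without knockdown 2 and to -0.11 with a filter of at least 1 CPM in 3 libraries. The most abundant were PFN1, profilin (645 ± 44.2 and 499.9 ± 156 CPM), and DYNLL1, a dynein light chain (183 ± 1.89 and 202 ± 15.8 CPM). The log2 fold change of PFN1 was -0.37 (edgeR adjusted p = 0.352), -0.65 without knockdown 3 (edgeR adjusted p = 0.0357) and -0.20 without knockdown 2 (edgeR adjusted p = 0.521).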

How the data were processed

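Total RNA of the 6 libraries was sequenced after ribosomal RNA removal with a stranded kit, per the labels' protocols. The authors deposited raw counts per Ensembl gene, 1 column a library, with no normalization. The tools were bcl2fastq 2.18, TopHat2 2.0.13 and HTSeq on hg38, per the submitters' processing notes. The HTSeq version, its annotation and its strand setting are not stated there. Library sizes and tests left out the 5 special HTSeq rows. These held 21.5% to 37.5% of uniquely aligned reads as outside genes and 2.87% to 3.70% as ambiguous. Symbols, positions and exon lengths came from GENCODE release 29 (57055 of 60675 identifiers matched), and promoter sequence from RefSeq (GRCh38.p14), which held both genes of the MOCS2 locus.

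Groups came from the sample titles. edgeR 4.0.16 in R 4.3.3 fitted all genes that passed filterByExpr (18267), with TMM factors and a two-sided quasi-likelihood test, adjusted by Benjamini-Hochberg over all of them at 0.05. Standard errors were the log2 fold change over the square root of F, and 95% intervals used edgeR's moderated degrees of freedom. log2 CPM used a prior count of 2. The fit was also run on simulated data, drawn gene by gene with no outlying library, and the outcome is not reported here. Alternatives were scaling by DESeq2 size factors or by upper quartiles, tests with DESeq2 1.42.0 or limma voom (limma 3.58.1), no filter, at least 1 CPM in 3 libraries, a replicate block, and leaving out each library. DESeq2 gave no adjusted p for 1774 genes.

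The genes and lists were chosen with earlier results of these data known. The rule named all 10 genes, the 2 most abundant of each context list unless one passed the test, the nearest neighbours of MOCS2, and the 3 genes most like MOCS2 and AC008966.1. Some list genes are not reported here. The planned protein comparison of XDH with AOX1 and of MARC1 with MARC2 was not made.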

Additional observations from a re-analysis of the deposited data

How the results depend on the processing

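Over 13 alternatives each, MOCS1, GPHN, SUOX, AOX1, MOCOS and AC008966.1 kept the sign of their log2 fold change, and AC008966.1 was the only one of the 9 tested genes called in any of them. It was called 3 times, by DESeq2 (adjusted p = 0.0387), with no filter (0.026) and without knockdown 3 (0.0125), where 6.94%, 3.64% and 14.8% of all genes were called, and its adjusted p ran from 0.0125 to 0.433. The number of genes called was therefore 1 of 9 by DESeq2, 1 of 10 with no filter and 0 to 1 of 9 over the fits that leave out 1 library. MOCS2, fitted at -0.01, was 0.0095 with upper-quartile factors and ran from -0.094 to 0.027 over the fits that leave out 1 library. MARC1 was 0.0057 with upper-quartile factors and ran from -0.12 to 0.063, and MARC2 ran from -0.16 to 0.041. The cause was not tested.

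Over all genes, 0 higher and 0 lower calls became 559 and 586 by DESeq2, 694 and 880 with no filter, and 6 and 13 with the replicate block. Leaving out 1 library gave 0 to 1232 higher and 0 to 1583 lower, where the highest counts were those without knockdown 3 and the only others above 0 were 4 lower without control 3. Deviations of same-numbered libraries from their group means had correlations of 0.11, -0.17 and -0.12. Those of the other pairs ran from -0.077 to 0.19. With 3 libraries a group, such values cannot settle whether the libraries were paired, and the labels do not say. The block called 0 of the 9 tested genes, and the log2 ratio of AC008966.1 to MOCS2 was -1.04 with or without it. That ratio ran from -1.37 to -0.78 over the left-out libraries. The number of tested genes whose groups do not overlap, an alternative added after seeing the data, was 3 with all libraries, 4 without knockdown 1 and 5 without control 1 or without knockdown 3. The counts of negative values per alternative, and the order by the longest transcript within each group, were also added after seeing the data. Depth limits XDH, with 2 and 8 reads in all, and AOX1, with 102 and 52.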
